A study of Sus scrofa with 2 samples.

Results

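The nuclei described here are endothelial nuclei of the pig left ventricle that carry transcripts of MYRIP, LRFN5, KIRREL3 and STC1. They numbered 1091 of the 31664 nuclei kept in the whole series. The RNA of single nuclei was sequenced from frozen heart muscle of Bama pigs, taken from the free wall of the left ventricle. Both groups had been fed a high-fat-high-sucrose diet for 12 months. One library came from triple-transgenic tissue (TG), which carries a variant form of the lipid droplet gene PNPLA3, a dominant-negative form of the receptor for the gut hormone GIP (GIPRdn) and human islet amyloid polypeptide (hIAPP). The other came from wild-type tissue (WT), which carries none of the 3 transgenes. The labels give neither the number of animals behind a library nor the promoters of the transgenes, so genotype, animal and library cannot be told apart, and no p-value was computed.

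A nucleus was a member when it held at least 5 unique molecular identifiers (UMIs, counted RNA molecules) of the endothelial genes FLT1, PECAM1, VWF, PTPRB and ADGRL4, making up at least 0.25% of its UMIs. It also had to hold under 1% of UMIs from the cardiomyocyte genes RYR2 and CTNNA3, fewer than 3 UMIs of MMRN1 and RELN, fewer than 2 of PLVAP, and at least 4 UMIs (at least 0.1%) of LRFN5, KIRREL3, MYRIP and STC1 together. The other vascular endothelial nuclei, used for comparison, passed every step but the last and numbered 2327 in TG and 989 in WT. Members were chosen by the UMIs of these genes, above all the 4 of the last step, so levels of those genes describe the choice and support nothing.

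The endothelium lines every vessel, and its cells differ between arteries, capillaries, veins, lymphatics and the endocardium, the inner lining of the heart chambers. Capillary endothelium of the heart is known for taking up fatty acids, through CD36 and the fatty acid binding proteins. Venous endothelium is known for admitting leukocytes, through adhesion molecules such as P-selectin (SELP) and VCAM1, and endothelial cells store von Willebrand factor in Weibel-Palade bodies. MYRIP links RAB27A on those storage granules to myosin motors, LRFN5 and KIRREL3 are adhesion proteins best known from synapses, and STC1 is a secreted glycoprotein.

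In build Sscrofa11.1, MYRIP lies at chr13:24347574-24556743, LRFN5 at chr1:171906130-172177726, KIRREL3 at chr9:53493735-54066490 and STC1 at chr14:7952175-7961365. Levels are given as CPM, the UMIs of a gene per 1000000 nuclear-encoded UMIs, both summed over the nuclei of a set in 1 library. They are not divided by gene length, so levels are compared between sets and not between genes. MYRIP stood at 932 CPM in TG members and 1356 in WT members, against 131 and 142 CPM in the other vascular endothelial nuclei of TG and WT. LRFN5 stood at 547 CPM in TG members and 625 in WT members. KIRREL3 had 407 CPM in TG members and 264 in WT members, and STC1 had 470 and 374.5 CPM. MYRIP was the most widely detected of the 4, in 85.7% of TG members and 92.0% of WT members. KIRREL3 was the least widely detected, in 35.5% and 25%.

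The threshold cut through a continuous range. Exactly 4 rule-gene UMIs were held by 102 TG members and 46 WT members, while 193 TG and 64 WT vascular endothelial nuclei held exactly 3 and stayed outside. Those just inside had 424 CPM (TG) and 492 CPM (WT) of PLAT, and those just outside had 354 and 456.5 CPM. PLAT encodes tissue plasminogen activator and was not used by the rule. Some other genes outside the rule stepped more widely at the threshold in WT. There IL1R1 had 597 CPM just inside and 396 just outside, NR2F2 250 and 170.5, and BTNL9 0 and 115.5 CPM. In TG these were 215 and 209 CPM of IL1R1, 79.9 and 69.3 of NR2F2, and 122 and 151 of BTNL9. All 4 rule genes were present together in 89 TG and 61 WT members, and a single one of them in 118 and 102.

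The TG library held 15000 barcodes with 89324966 UMIs and the WT library 18251 barcodes with 127126477 UMIs, of which 14939 and 16725 nuclei were kept. No TG barcode had fewer than 1972 UMIs, whereas WT barcodes went down to 500. Members had a median of 3498 UMIs in TG and 4147.5 in WT, and the other vascular endothelial nuclei 2872 and 2458, so members were the deeper set in both libraries. The libraries shared 81 barcodes, none of them among members. All 14 measured markers of endothelial identity were present, and at least 3 of their UMIs were found in 99.8% of members in each library.

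Markers of other cell types were present in the members, and those of muscle differed between the libraries. The 11 cardiomyocyte markers summed to 7105 CPM in TG members and 2849 CPM in WT members, which was 22.3% and 7.01% of their level in cardiomyocyte nuclei, with none at 0. The 12 fibroblast markers summed to 1431 CPM in TG members and 720.5 in WT members, and the 13 macrophage markers to 332 and 665.5 CPM, again with none at 0. Smooth muscle (8 markers, 144.5 CPM in TG and 228.5 in WT), pericyte (10 markers, 165 and 164 CPM) and lymphocyte markers (12 markers, 114 and 81.1 CPM) were lower, and CD3D, THEMIS and PRF1 were at 0 in WT members. Of TG members 14 (2.15%), and of WT members 26 (5.91%), had over 3 times the library's vascular endothelial median UMIs. That median was taken over members and other vascular endothelial nuclei together. No doublet caller was run.

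Members took a larger share of all nuclei in TG and a smaller share of the endothelium. They were 651 of 14939 kept TG nuclei (4.36%, exact 95% interval 4.04 to 4.70%) and 440 of 16725 kept WT nuclei (2.63%, 2.39 to 2.89%), a ratio of 1.66 (1.47 to 1.87). Among vascular endothelial nuclei they were 21.9% of 2978 in TG and 30.8% of 1429 in WT, a ratio of 0.710 (0.628 to 0.803). The other vascular endothelial nuclei differed more, at 15.6% of kept nuclei in TG and 5.91% in WT, a ratio of 2.63. All intervals in this text cover counting error only. With at least 2000 UMIs required in both libraries, which removes shallow WT nuclei, the ratios were 1.56 of kept nuclei and 0.559 of vascular endothelial nuclei.

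Members lay near each other in genes that the rule did not use. Among the 15 nearest neighbours of a TG member, found without the rule genes and gate genes, an average of 56.3% were members, against a base share of 21.9% among TG vascular endothelial nuclei. In WT the average was 69.9% against a base of 30.8%. Neighbours of the other nuclei were members in 12% of cases in TG and 13.6% in WT. Depth ran with the first component of this space (absolute correlation with log UMIs 0.34 in TG and 0.513 in WT, across nuclei of 1 library), and its part in the likeness was not tested.

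Venous genes accompanied the members, and endocardial genes did so only in part. A gene was called higher or lower when it had at least 20 UMIs over both sides, differed at least 1.5 times, and had a 95% interval that left out 1. In both libraries at once, 525 of 11617 genes (4.52%) were higher in members than in the other vascular endothelial nuclei and 500 (4.30%) were lower. Within TG alone 7.22% were higher and 8.07% lower, and within WT alone 9.00% and 10.1%, while 0.310% were called in opposite directions in the libraries. The rule split the nuclei along this same contrast, so these counts describe the members and test nothing. Of 15 measured venous genes, 7 were higher in both libraries and none was lower in both. The median log2 ratio of this list was 0.65 in TG and 1.03 in WT, beside -0.01 and -0.03 over all genes.

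ACKR1, the chemokine-binding receptor of venules, had 87.4 CPM in TG members and 95.3 in WT members, against 15.3 and 16.1 CPM in the other nuclei. IL1R1, the interleukin-1 receptor, reached 463 CPM in TG members and 698 in WT members, against 116 and 147 CPM in the others. NR2F2, the transcription factor of venous identity, had 137 and 170 CPM in members, against 49.7 and 75.8 CPM in the others. SELP, VCAM1, TLL1 and the apelin receptor APLNR completed the 7. In each of these genes the members were above the other nuclei of their own library. The others leave out endothelial nuclei with at least 2 UMIs of PLVAP (81 in TG and 39 in WT), which the rule sets apart. Against those, ACKR1, IL1R1, NR2F2, SELP and TLL1 had lower CPM in members of both libraries. VCAM1 had higher CPM in members in WT, 2.13 times (1.22 to 4.07). For APLNR the ratios were 1.69 in TG (0.935 to 3.36) and 1.20 in WT (0.814 to 1.83), with intervals that span 1. ACKR1 had 150 CPM in TG and 131 CPM in WT in the PLVAP nuclei, NR2F2 215 and 252 CPM, and IL1R1 586 and 1158 CPM. The ratios of members over PLVAP nuclei were 0.582 (0.436 to 0.787) in TG and 0.726 (0.509 to 1.06) in WT for ACKR1, and 0.432 and 0.415 for SELP.

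NPR3 and SMOC1, which mark endocardium in other species, gave a weaker picture. NPR3, the natriuretic peptide clearance receptor, was 3.03 times higher in TG members than in the others (2.14 to 4.29) and 2.02 times in WT (1.18 to 3.51), but stood at only 27.6 CPM in TG members and 17.7 CPM in WT members. After thinning every nucleus to 1000 UMIs, 1.69% of TG members (0.846 to 3.00%) and 1.59% of WT members (0.643 to 3.26%) had a UMI of it, against 0.685% and 0.390% of lymphocyte nuclei, which should lack it. These intervals overlap those of the lymphocyte nuclei, so a share of members with NPR3 above that of lymphocyte nuclei was not detectable at this depth. SMOC1, a matricellular protein, had 155 CPM in TG members and 219 CPM in WT members, against 113 and 135 CPM in the others. The SMOC1 ratio was 1.36 in TG, under the threshold, and 1.63 in WT. After the same thinning SMOC1 was found in 13.2% of TG members and 18% of WT members, in 9.80% and 10% of the other vascular endothelial nuclei, and in 0.685% and 0.195% of lymphocyte nuclei, so its UMIs were not confined to members but were far commoner in endothelium than in lymphocytes. Of the 11 measured endocardial genes, NPR3 and MEIS2 were higher in both libraries and GATA4, a transcription factor of endocardium and muscle, was lower in both, with ratios of 0.446 in TG and 0.406 in WT. NPR3 and MEIS2 lay on different kinds of members in the libraries, as given below.

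Capillary genes were lower in members almost throughout. Of 13 measured, 11 were lower in members in both libraries and none was higher. CD36, the fatty acid translocase, had 1316 CPM in TG members and 673 CPM in WT members, against 3263 and 2713 CPM in the others. GPIHBP1, which holds lipoprotein lipase on the capillary wall, had 30.3 CPM in TG members and 3.93 CPM in WT members, against 162 and 110 CPM in the others. CA4, a carbonic anhydrase of capillaries, and BTNL9, a butyrophilin-like protein, were lower as well. The VEGF receptor KDR had 117 CPM in TG members and 59.0 in WT members, against 339 and 306 CPM in the others. Basement membrane genes were lower together: 8 of 16 were lower in both libraries and none was higher, among them the collagen IV genes COL4A1 and COL4A2 and the nidogens NID1 and NID2.

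**Figure D1:**
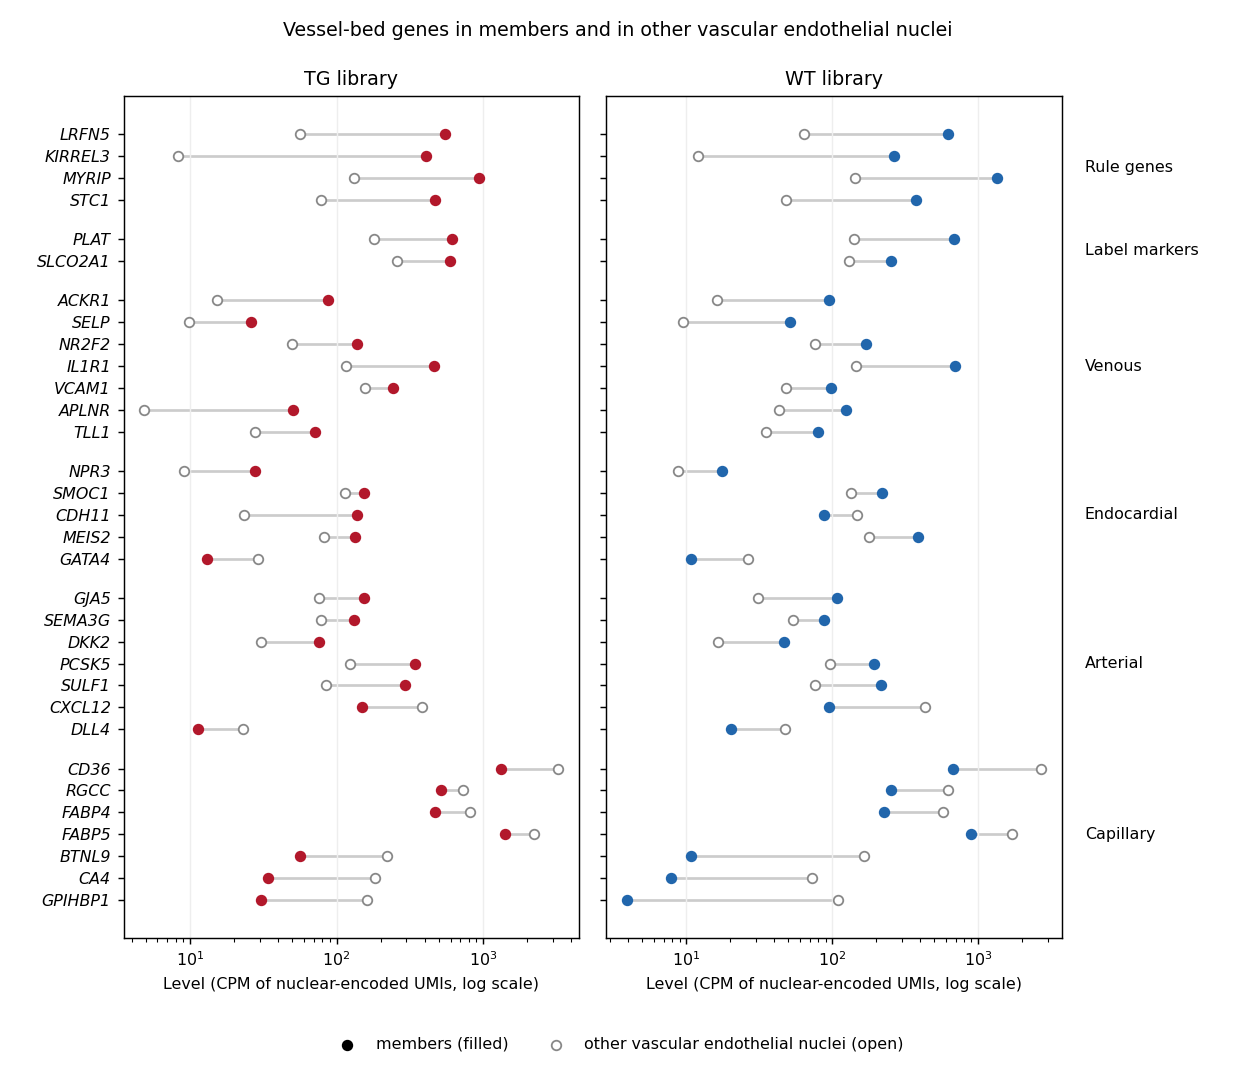
Levels (CPM of nuclear-encoded UMIs, log axis) of rule genes and vessel-bed genes in members (filled) and other vascular endothelial nuclei (open), in the TG library (left) and the WT library (right), each point a sum over nuclei of 1 library. Filled points lie right of open ones for the venous genes and left of them for the capillary genes in both libraries; CDH11 goes opposite ways.

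Arterial genes were split. Of 20 measured, 5 were higher in members in both libraries and 2 were lower. GJA5, an arterial gap junction protein, had 154 CPM in TG members and 107 CPM in WT members, against 75.7 and 31.2 CPM in the others. SEMA3G, PCSK5, SULF1 and DKK2, which binds Wnt co-receptors, were higher too, and the Notch ligand DLL4 and the chemokine CXCL12 were lower. CXCL12 had 148 CPM in TG members and 94.9 in WT members, against 384 and 433 CPM in the others. In WT the ratios of GJA5, SEMA3G and DKK2 turned below 1 once nuclei with at least 3 UMIs of fibroblast, macrophage, lymphocyte, pericyte or smooth muscle markers were left out, with log2 ratios of -0.41, -0.29 and -3.27, while in TG the log2 ratio of DKK2 was then 2.60.

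The genes furthest above the other vascular endothelial nuclei, PLVAP nuclei not counted, included genes of potassium channels, cell contact and secreted signals in both libraries. KCNMA1, the large-conductance calcium-activated potassium channel, had 604 CPM in TG members and 1043 CPM in WT members, against 46.8 and 174 CPM in the others, ratios of 12.9 (11.5 to 14.5) and 5.99 (5.43 to 6.61). KCNB2, a voltage-gated potassium channel, had 147 CPM in TG members and 250 in WT members, against 17.4 and 33.7 CPM in the others. EPHB1, a receptor for ephrin-B ligands, was 14.2 times higher in TG members and 7.90 times in WT members. TMEM200A, a membrane protein, was 22.6 times higher in TG (14.4 to 37.0) and 9.45 times in WT (6.28 to 14.7). CA8, a carbonic anhydrase relative without that activity, was 14.7 times higher in TG members and 10.0 times in WT members.

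The Wnt ligand WNT9B had 129.5 CPM in TG members and 121 in WT members, against 9.22 and 18.9 CPM in the others. PTHLH, parathyroid hormone-related protein, had 102 CPM in TG members and 140 in WT members, against 14.2 and 24.9 CPM. The adhesion gene CADM3 and the IgE receptor gene FCER1A lie near each other at chr4:91227362-91260125 and chr4:91118867-91125448, and were 10.7 and 13.6 times higher in TG members and 8.78 and 6.77 times in WT members. The serpin genes SERPINB7 and SERPINB10 lie in 1 region too, at chr1:157953872-157999242 and chr1:157841487-157866913, and were 10.0 and 11.6 times higher in TG members and 9.15 and 8.63 times in WT members. NKAIN2, a partner of the sodium pump, completed the 12. Several of the 12 were no higher in members than in PLVAP nuclei. KCNB2 was 0.933 times the PLVAP level in TG members (0.713 to 1.24) and 0.684 times in WT members (0.552 to 0.854). In TG the ratios were 0.877 for CADM3, 0.931 for FCER1A and 0.855 for SERPINB10, with intervals that span 1, while in WT they were 1.98, 1.96 and 3.24. KCNMA1 was above the PLVAP nuclei in both libraries, 2.10 times in TG and 1.76 times in WT, with intervals above 1. At the other end PTGER2, the EP2 receptor for prostaglandin E2, had 48.4 CPM in TG members and 29.5 in WT members, against 294 and 275 CPM in the others. MYO10, the myosin of filopodia, had 113 CPM in TG members and 66.3 in WT members, against 467 and 571 CPM. The Slit receptors ROBO1 and ROBO2 and the ubiquitin ligase gene LNX1 were lower too.

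**Figure D2:**
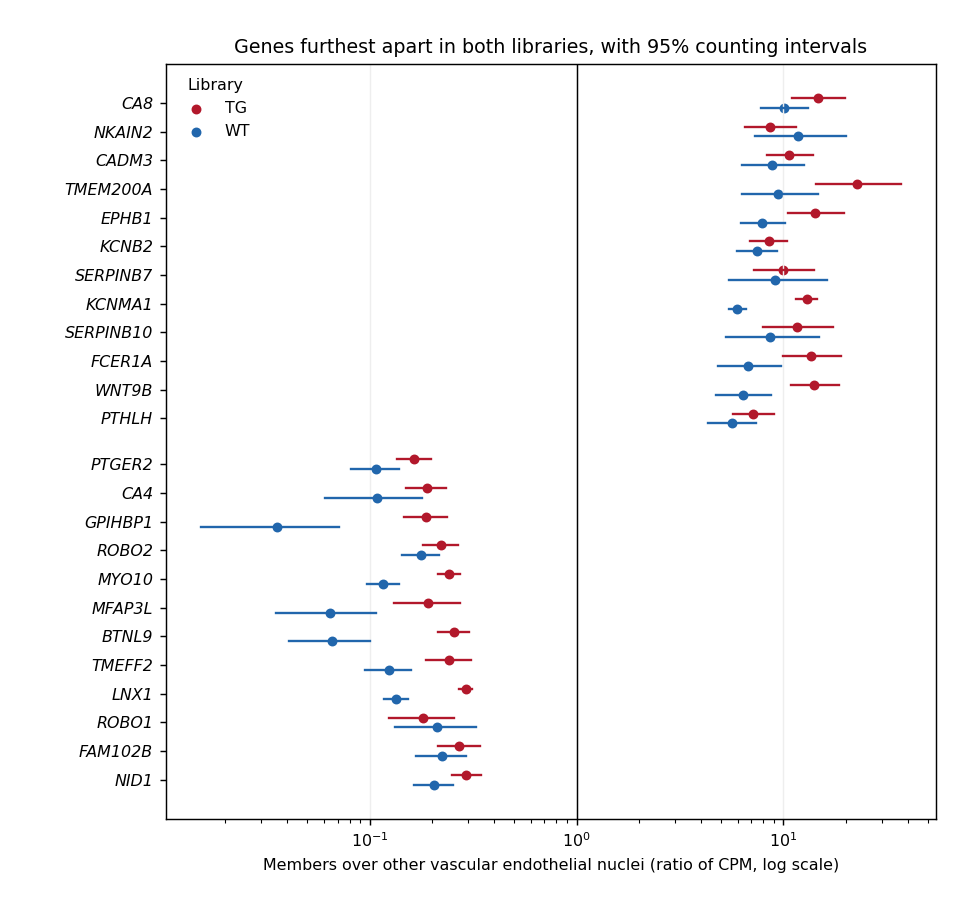
Ratio of members over other vascular endothelial nuclei (log axis) for the 12 genes furthest above and the 12 furthest below 1 in both libraries, TG (red) and WT (blue), with 95% counting intervals. Every interval of the upper 12 lies above 1 and every interval of the lower 12 below 1 in both libraries.

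Genes of clotting, prostaglandins and vessel tone went both ways between members and the others. Of 14 measured genes of clotting and clot lysis, PLAT and ENTPD1 were higher in both libraries and TFPI2 was lower. Of 21 of nitric oxide and vessel tone, NOS3, GUCY1A1, NPR3 and CALCRL were higher and EDNRA, ACE, AGTR1 and ADM were lower, with median log2 ratios of -0.19 in TG and -0.03 in WT. Of 12 prostaglandin genes, SLCO2A1, PTGIS and PLA2G4A were higher and PTGER2, PTGER4 and HPGD were lower. PLAT had 610 CPM in TG members and 681 in WT members, against 180 and 141 CPM in the others. SLCO2A1, the prostaglandin transporter, had 597 CPM in TG members and 253 CPM in WT members, against 257.5 and 130 CPM. Among Weibel-Palade genes outside the rule, RAB27A and SELP were higher in both libraries, and ANGPT2 and TFPI2 were lower in both. RAB27A, the small GTPase that MYRIP binds, had 66.1 CPM in TG members and 123 in WT members, against 28.5 and 47.7 CPM in the others. The ectonucleotidase ENTPD1 had 622 CPM in TG members and 816 in WT members, against 228 and 270 CPM. Of 12 genes of the response to flow, 4 were higher in both libraries and none lower, namely KLF2, NOS3, HEG1 and ADAMTS1. KLF2, the shear-stress transcription factor, had 630 CPM in TG members and 636 in WT members, against 377 and 342 CPM in the others.

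The members were not of 1 kind. MYRIP led the rule genes in 266 of 651 TG members (40.9%) and 236 of 440 WT members (53.6%), LRFN5 in 132 and 92, STC1 in 107 and 44, and KIRREL3 in 88 and 34. Members led by KIRREL3 had 1500 CPM of KCNMA1 in TG and 2924 CPM in WT, and those led by LRFN5 had 152 and 726.5 CPM. GJA5 stood at 330 CPM in TG and 188 CPM in WT in members led by MYRIP, and at 0 and 7.18 CPM in those led by KIRREL3. BTNL9, the capillary gene, reached 105 CPM in TG and 36.2 CPM in WT in members led by LRFN5, while WT members led by KIRREL3 had 7.18 CPM.

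Arterial and venous marks lay on partly different members. These marks were chosen after the values were seen, so they describe and test nothing. Members with at least 2 UMIs of GJA5 and SEMA3G and none of ACKR1, SELP and NR2F2 (arterial-marked) were 103 in TG (15.8%) and 46 in WT (10.5%). Members with at least 2 UMIs of ACKR1, SELP and NR2F2 and none of the arterial pair (venous-marked) were 146 in TG (22.4%) and 132 in WT (30%). These 2 marked sets exclude each other by definition. Any UMI of the arterial pair was found in 214 TG and 108 WT members, and any of the venous genes in 274 and 257. Any UMI of both sets was found in 46 TG members (7.07%) and 42 WT members (9.55%). Thus 46 of the 214 TG members and 42 of the 108 WT members with an arterial UMI also held a venous one. Among all members, 42.1% in TG and 58.4% in WT held a venous UMI. The overlap that sparse UMIs alone would give was not computed. MYRIP led in 76 of the 103 arterial-marked TG members and in 44 of the 46 in WT. STC1 stood at 65.7 CPM in TG and 27.8 CPM in WT in arterial-marked members, against 669 and 415 CPM in venous-marked ones, and IL1R1 at 22.7 and 31.7 CPM against 801 and 935 CPM. VCAM1 and APLNR were lower in arterial-marked than in venous-marked members of both libraries too. TLL1, also on the venous list, was 2.14 times higher in arterial-marked than in venous-marked TG members (1.48 to 3.12). In WT it had 55.6 CPM in the arterial-marked and 90.4 CPM in the venous-marked. KCNB2 was nearly absent from arterial-marked members, at 2.52 CPM in TG and 0 in WT, and had 319 and 349.5 CPM in venous-marked ones. NPR3 and MEIS2, from the endocardial list, lay differently in the libraries. NPR3 had 5.05 CPM in arterial-marked and 43.6 CPM in venous-marked TG members, but 47.6 and 12.3 CPM in WT. MEIS2 had 80.8 and 154 CPM in TG, but 913 and 280.5 CPM in WT. Members with neither mark had 16.7 CPM (TG) and 8.77 CPM (WT) of NPR3, and 164 and 145 CPM of MEIS2.

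**Figure D3:**
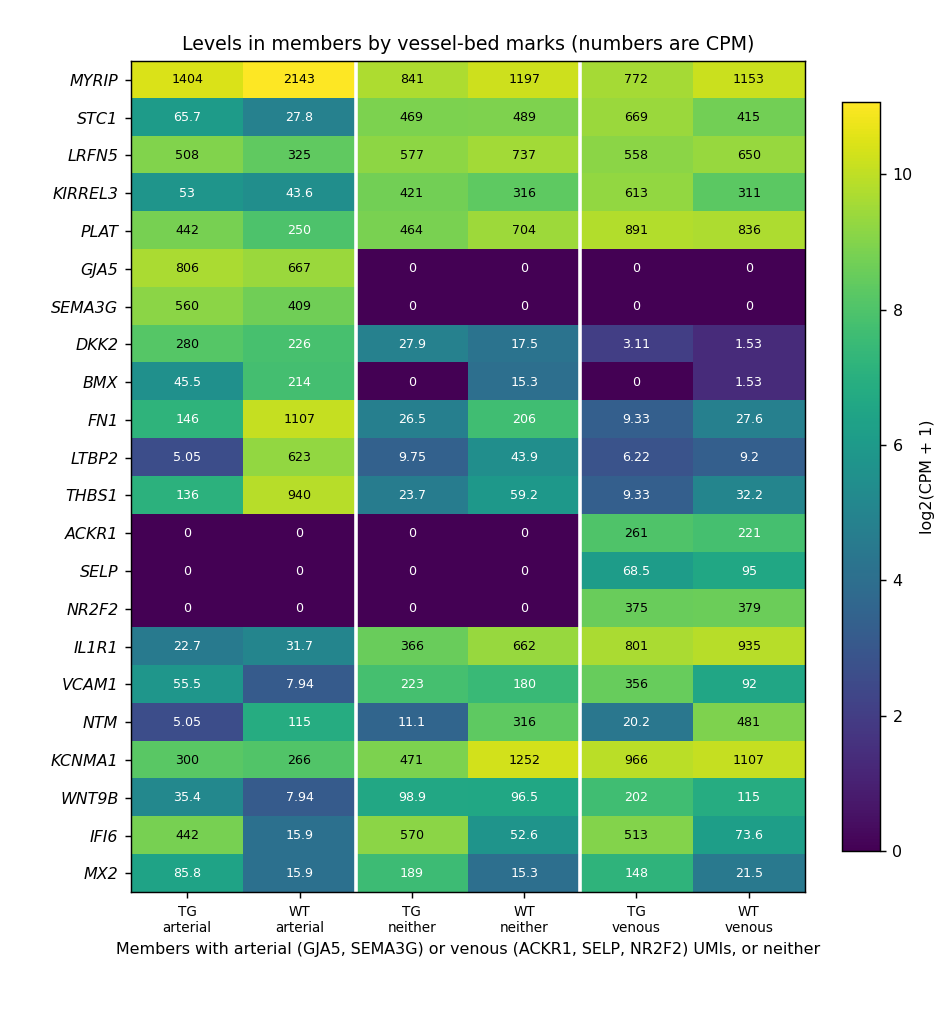
Levels in members split by UMIs of arterial genes (GJA5, SEMA3G), of venous genes (ACKR1, SELP, NR2F2) or of neither, TG left of WT in each pair; numbers are CPM, colour is log2(CPM + 1), and the genes used for the split are 0 by construction where their mark is absent. STC1, KIRREL3 and IL1R1 are low in arterial-marked members of both libraries, and FN1, LTBP2 and THBS1 are high in the arterial-marked WT members.

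Between the genotypes, members of TG differed from those of WT in many genes, and interferon-induced and capillary genes were among the higher ones. Of 11596 genes tested in members, 1278 (11.0%) were higher in TG and 990 (8.54%) were lower, with a median log2 ratio over all of them of -0.0039. The other vascular endothelial nuclei gave 11.0% higher and 7.01% lower of 13708. With 1 library a genotype, every ratio compares 2 libraries.

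Interferon-induced genes were higher in TG members in 11 of 20 measured and lower in 1, with a median log2 ratio of 0.67. IFI6 had 487 CPM in TG members and 52.6 CPM in WT members (9.26 times, 7.60 to 11.4). MX2, an antiviral GTPase, had 157.5 CPM in TG members and 18.2 CPM in WT members. The ubiquitin-like modifier ISG15 had 64.2 CPM in TG members and 13.3 in WT members, RSAD2 (viperin) had 108 and 26.1 CPM, and the chemokine CXCL10 had 203 and 60.5 CPM. STAT2, a signal transducer of interferon receptors, was the 1 gene lower, with a ratio of 0.601 (0.371 to 0.965). The excess was not particular to members: in the other vascular endothelial nuclei 11 of 21 were higher, IFI6 at 442 CPM in TG and 88.4 in WT, and in macrophage nuclei IFI6 had 211 and 23.5 CPM. Within arterial-marked members IFI6 was 27.8 times higher in TG (10.7 to 103), and within venous-marked ones 6.98 times (5.14 to 9.65). CXCL10 differed within the members: it stood at 10.1 CPM in TG and 0 in WT in the arterial-marked, and at 264.5 and 47.5 CPM in the venous-marked. In the unmarked it had 280 CPM in TG and 158 CPM in WT, a ratio of 1.77 (1.35 to 2.36).

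Capillary genes were higher in TG members in 10 of 13 measured and lower in 1, against 2 of 13 higher in the other vascular endothelial nuclei. GPIHBP1 was 7.71 times higher (3.72 to 18.5), BTNL9 5.24 times (3.33 to 8.63) and CD36 1.96 times (1.83 to 2.08). TCF15, a transcription factor of heart capillaries, was lower, at 16.1 CPM in TG members and 27.0 in WT members. CD36 transcripts were also found outside the endothelium more often in TG. After thinning to 1000 UMIs, 51.5% of TG members and 33.7% of WT members had a CD36 UMI, and so had 28.1% of TG and 6.43% of WT lymphocyte nuclei. The part of free RNA in the capillary result was not tested. With a library-wide profile taken off at a share set by the cardiomyocyte markers (28.8% of members' UMIs in TG and 9.66% in WT), the median log2 ratio of the capillary list was 0.86, beside 0.97 before.

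Muscle genes were higher in TG members, in 19 of 21 sarcomere genes and 12 of 17 genes of oxidative phosphorylation, none lower in either list. The myosin light chain MYL2 had 1822 CPM in TG members and 672 CPM in WT members. The cardiomyocyte markers given above moved with this, and their part in it was not tested. In the other vascular endothelial nuclei 18 of 21 sarcomere genes and 11 of 17 of oxidative phosphorylation were higher in TG too, and 1 sarcomere gene was lower.

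Among the other genes higher in TG members, KCNN2, the small-conductance potassium channel SK2, had 754 CPM in TG members and 118 CPM in WT members (6.39 times, 5.58 to 7.34), and in the other nuclei 421 and 145 CPM. It was higher within arterial-marked (3.05 times), venous-marked (18.3 times) and unmarked members (6.16 times). RAMP3, which pairs with the calcitonin receptor-like receptor to bind adrenomedullin, had 95.3 CPM in TG members and 13.8 CPM in WT members. The receptor itself, CALCRL, was not called, at 1968 CPM in TG members and 2810 in WT members. SLPI, a secreted protease inhibitor, had 305.5 CPM in TG members and 61.0 in WT members, and ATP13A3, a polyamine transporter, 373 and 93.4 CPM. Both were highest in arterial-marked members, where SLPI had 858.5 CPM in TG and 254 CPM in WT. PSP-II, a spermadhesin of the pig, had 145 UMIs (57.1 CPM) in TG members and 0 UMIs in WT members, at least 38.7 times higher against a floor of 3 UMIs over the WT members. It lay on arterial-marked (78.3 CPM) and unmarked members (90.5 CPM) of TG and was at 0 in the venous-marked ones. CHMP4C, DDI1, ADGRF4 and MAB21L3 were higher in TG members too.

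**Figure D4:**
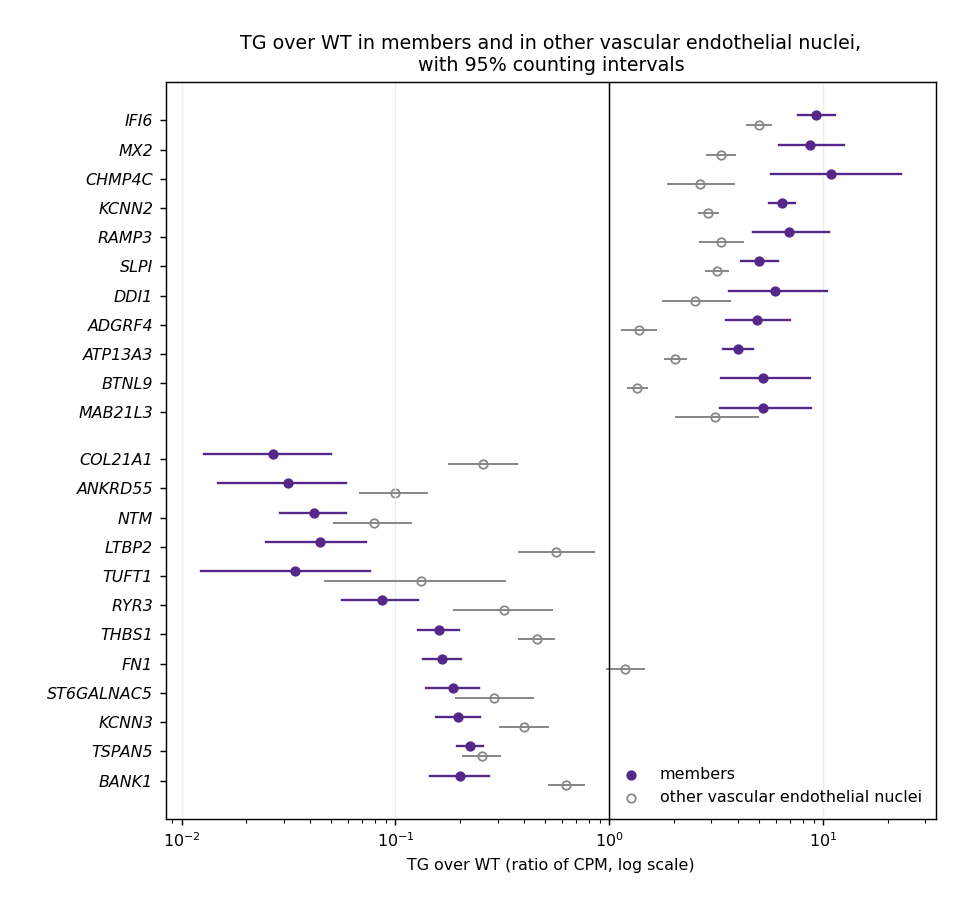
Ratio of TG over WT (log axis) in members (filled) and in other vascular endothelial nuclei (open) for the genes furthest above and below 1 in members, with 95% counting intervals; PSP-II, at 0 in WT, is left out. Among the lower genes FN1 alone has an interval that spans 1 in the other nuclei.

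Genes lower in TG members differed in where they lay among WT members. A first group of 7 was highest on arterial-marked WT members, and was lower in TG among unmarked members too. ANKRD55, given below, shared this. COL21A1, a fibril-associated collagen, had 3.94 CPM in TG members and 147 CPM in WT members, a ratio of 0.0268 (0.0127 to 0.0500). In arterial-marked members it stood at 2.52 CPM in TG and 754 CPM in WT, in venous-marked ones at 3.11 and 4.60 CPM, and in unmarked ones at 4.18 and 48.2 CPM. LTBP2, a protein of elastic fibres, had 6.30 CPM in TG members and 142.5 CPM in WT members, 5.05 and 623 CPM in the arterial-marked, and 9.75 and 43.9 CPM in the unmarked. FN1 (fibronectin) had 46.5 CPM in TG members and 281 CPM in WT members. Its ratio was 0.132 (0.0979 to 0.176) in the arterial-marked and 0.128 (0.0740 to 0.212) in the unmarked, where it had 26.5 CPM in TG and 206 CPM in WT. THBS1 (thrombospondin-1) had 40.2 CPM in TG members and 251 CPM in WT members, with a ratio of 0.400 in the unmarked. The calcium release channel RYR3, the potassium channel KCNN3 and TUFT1 followed the same pattern, KCNN3 with 126 CPM in TG and 889 CPM in WT in the arterial-marked. BMX, a kinase of arterial endothelium, had 45.5 CPM in arterial-marked TG members and 214 CPM in arterial-marked WT members, a ratio of 0.212 (0.117 to 0.367). GJA5, one of the genes that made the mark, stood there at 805.5 and 667 CPM.

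Those 46 WT nuclei also carried some markers of other cells. In arterial-marked members smooth muscle markers summed to 154 CPM in TG (ITGA8 at 0) and 480 CPM in WT (LMOD1 at 0). The defining smooth muscle genes MYH11 and ACTA2 had 42.9 and 15.1 CPM in TG and 15.9 and 3.97 CPM in WT, while NTRK3 and TAGLN had 25.3 and 50.5 CPM in TG and 238 and 202 CPM in WT. The 12 fibroblast markers summed to 2510 CPM in TG and 1055 CPM in WT, with ABCA8 and TCF21 at 0 in WT, and to 750 and 516 CPM without GSN. Pericyte markers summed to 162 CPM in TG and 317 CPM in WT, with 2 of 9 at 0 in TG and 6 in WT. Arterial-marked members with at least 3 UMIs of fibroblast markers other than GSN were 29.1% in TG and 45.7% in WT. For smooth muscle markers these shares were 4.85% and 30.4%, and for pericyte markers 8.74% and 19.6%. The part of these cells in the matrix genes was not tested. In fibroblast nuclei FN1 stood at 579 CPM in TG and 232 CPM in WT, below the 1107 CPM of the arterial-marked WT members. With all members that held at least 3 UMIs of other cells' markers left out, 260 TG and 246 WT members remained, and the log2 ratio of TG over WT was -1.17 for COL21A1, beside -5.15 before. For LTBP2 it was -0.83 (before, -4.46), for FN1 -1.19 (before, -2.59), for THBS1 -1.17 (before, -2.64) and for KCNN3 -1.20 (before, -2.34). RYR3 and TUFT1 stayed further below 0, at -4.53 (before, -3.51) and -3.06 (before, -4.76). With GSN not counted as a marker, 462 TG and 286 WT members remained, and the log2 ratios were -3.19 for COL21A1, -2.56 for LTBP2, -1.88 for FN1, -0.76 for THBS1 and -1.11 for KCNN3.

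In the other 5 genes the whole interval of the ratio lay below 1 in the venous-marked and the unmarked alike, as it did for FN1 and THBS1. For COL21A1, LTBP2 and KCNN3 the venous-marked ratios were 0.677, 0.677 and 0.451, with intervals that span 1. RYR3 and TUFT1 had no UMIs in venous-marked members. NTM, an adhesion protein (neurotrimin), had 13.8 CPM in TG members and 330 CPM in WT members, a ratio of 0.0418 (0.0289 to 0.0587). It stood at 20.2 CPM in TG and 481 CPM in WT in the venous-marked, and at 5.05 and 115 CPM in the arterial-marked, and the ratio in the unmarked was 0.0353. TSPAN5, a tetraspanin, had 102 CPM in TG members and 457 CPM in WT members, with ratios of 0.278 in the venous-marked and 0.0848 in the arterial-marked. ANKRD55 had 3.94 CPM in TG members and 126 CPM in WT members, with ratios of 0.0406 in the venous-marked and 0.00731 in the arterial-marked. Like the first group, ANKRD55 was highest on arterial-marked WT members (345 CPM). Venous-marked WT members had 38.3 CPM of it and unmarked ones 101 CPM. The sialyltransferase gene ST6GALNAC5 had 24.0 CPM in TG members and 129 CPM in WT members and was at 0 in arterial-marked members of both libraries. BANK1, an adaptor gene best known from B cells, had 20.5 CPM in TG members and 102 CPM in WT members, a log2 ratio of -2.30. With members that held other cells' markers left out, the log2 ratio of BANK1 was -0.26, and -0.49 with GSN not counted. It was -1.66 with every nucleus weighted equally. In the other vascular endothelial nuclei NTM, TSPAN5, ANKRD55 and ST6GALNAC5 were also lower in TG, with ratios of 0.0793, 0.253, 0.0993 and 0.290.

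**Figure D5:**
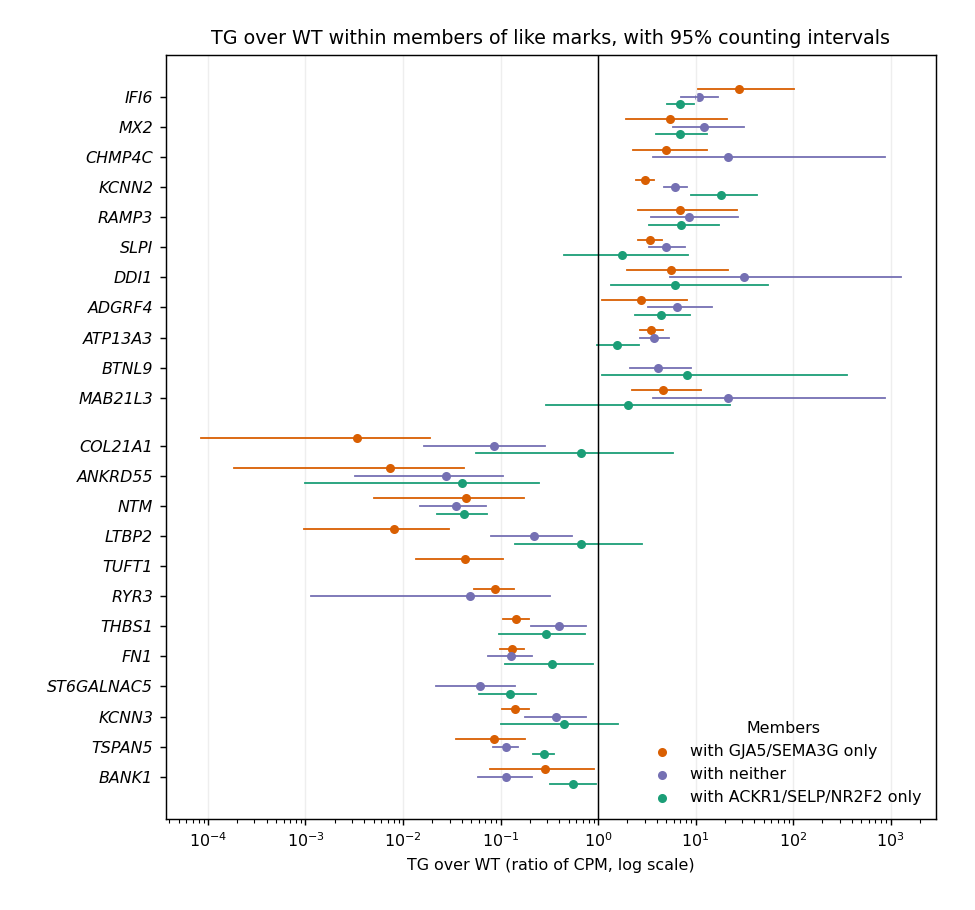
Ratio of TG over WT (log axis) within members that hold arterial UMIs only (orange), venous UMIs only (green) or neither (purple), with 95% counting intervals; subsets with 0 UMIs in a library are left out. COL21A1 and LTBP2 lie far below 1 in the arterial-marked, less far below 1 in the unmarked, and span 1 in the venous-marked, while NTM lies below 1 in all 3.

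Venous genes were not higher in TG members as a list. Of 15 measured, VCAM1 was higher and SELP, IL1R1, APLNR, CPE and IGFBP7 were lower, with a median log2 ratio of -0.31. VCAM1 had 244.5 CPM in TG members and 98.3 CPM in WT members, and within the venous-marked it was 3.87 times higher in TG (2.90 to 5.24). In the unmarked its ratio was 1.24 (0.944 to 1.64), an interval that spans 1. In the arterial-marked the ratio was 7 (1.72 to 61.4), on 22 UMIs in TG and 2 in WT. Without members that held ACKR1, SELP or NR2F2, its log2 ratio was 0.45, beside 1.31 before. SELP had 26.0 CPM in TG members and 51.6 CPM in WT members. ACKR1 did not differ beyond its interval, at a ratio of 0.917 (0.753 to 1.12). The share of members with any UMI of ACKR1, SELP or NR2F2 was 42.1% in TG and 58.4% in WT, without thinning. WT members were deeper, with a median of 4147.5 UMIs against 3498 in TG. After the thinning used above, ACKR1 was found in 8.14% of TG and 7.52% of WT members, and SELP in 3.38% and 3.87%. NR2F2 was then found in 10.9% and 14.6%, and for each gene the intervals of the libraries overlapped. The share with any of these genes after thinning was not computed. ICAM1, an adhesion molecule for leukocytes, had 202 CPM in TG members and 99.8 CPM in WT members.

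Prostaglandin genes went opposite ways. SLCO2A1 was 2.36 times higher in TG members (2.13 to 2.61). PLA2G4A, the phospholipase that frees arachidonic acid, had 85.4 CPM in TG members and 321 CPM in WT members. PTGS2, cyclooxygenase-2, had 6.30 CPM in TG members and 46.7 in WT members. Of 12 measured, 3 were higher and 2 lower in TG members.

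Immediate-early and stress genes were lower in TG members in 10 of 17 measured and higher in none, with a median log2 ratio of -0.99. EGR1 had 30.3 CPM in TG members and 102 CPM in WT members, and the nuclear receptor NR4A1 had 27.6 and 103 CPM. FOS had 33.9 CPM in TG members and 67.3 in WT members. In the other vascular endothelial nuclei 6 of 16 were lower in TG. None of the 13 measured flow-response genes was called between the libraries, KLF2 among them at a ratio of 0.990 (0.919 to 1.07). Of the pig genes that the transgenes correspond to, PNPLA3 had 0 UMIs in members of both libraries, GIPR 2 in TG and 0 in WT, and IAPP 16 in TG and 4 in WT. Whether reads of human IAPP were counted under the pig gene is not given in the sources used here.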

How the data were processed

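Per the labels' protocols, nuclei were isolated on an iodixanol gradient and made into 10x Genomics Chromium 3' libraries. The submitters' processing notes name Cell Ranger 3.1.0, Seurat 3.1.1 and build Sscrofa11.1, whereas the matrix headers name Cell Ranger 5.0.0, and this was not resolved. The values used are the UMI counts the authors deposited, 1 matrix per library with 31908 genes, of which 16498 had symbols in the files; a table of gene names added 841. Whether intronic reads were counted is not given in the sources used here. Gene positions came from a RefSeq table of build Sscrofa11.1.

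Barcodes with 500 genes or more and no more than 5% of UMIs from the 13 mitochondrial genes were kept and gated as the report states. No doublet caller was run; nuclei with UMIs of other cell types were left out in an alternative. Nuclei of other cell types, used only for comparison, held at least 5 UMIs (at least 0.25%) of fibroblast, macrophage, lymphocyte, pericyte or smooth muscle markers, most of 1 of these lists, and under 1% of RYR2 and CTNNA3 and 0.25% of the endothelial genes; cardiomyocyte nuclei held at least 1% of RYR2 and CTNNA3 and less than 0.25% of either other signal. Counts were summed per library and set. Levels are CPM of nuclear-encoded UMIs, and ratios carry 95% intervals from the conditional binomial distribution, shares exact Clopper-Pearson intervals (scipy 1.17.1, numpy 2.4.6, pandas 2.3.3, Python 3.11.15). Log2 ratios had 0.5 added to each count. No p-values were computed. For the neighbours, 1500 variable genes and 20 principal components per library were used. The scripts were tested on simulated counts. The members and the 47 gene lists (581 of 626 genes in the matrices) were chosen with earlier results of these data known.

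Among genes with a symbol, without ribosomal protein and rule genes, those named in TG over WT were the 12 highest and 12 lowest by the interval bound nearest to 1, with at least 50 CPM where higher, there at least 2 times the median of fibroblast, macrophage and lymphocyte nuclei and at least the level of cardiomyocyte nuclei. Genes named in members over others were the 12 highest and 12 lowest by that bound in the library nearer to 1, with at least 50 CPM. Members of lists were named by the bound furthest from 1, and some for their known role after their values were seen. Some results are not reported here. Alternatives changed filters, gates, scaling, depth and treatment of mixed nuclei.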

Additional observations from a re-analysis of the deposited data

Results flagged for a closer look

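CDH11, a cadherin on the endocardial list, was higher in TG than in WT among members, with a log2 ratio of 0.65 (138.6 CPM in TG members and 88.5 CPM in WT members), and lower in TG among the other vascular endothelial nuclei, with a log2 ratio of -2.65 (23.3 CPM in TG and 147 CPM in WT). CPE, carboxypeptidase E on the venous list, went the other way round, with a log2 ratio of -2.55 in members (2.36 CPM in TG and 14.7 CPM in WT) and 3.44 in the others (5.66 CPM in TG and 0.351 CPM in WT). Both were singled out because their 2 sets of nuclei moved in opposite directions between the libraries. The difference between the sets was not tested. CDH11 UMIs lay on few of the other nuclei, 4.90% of them in TG and 3.94% in WT, and after thinning to 1000 UMIs on 1.55% and 2.00%, so the share with a UMI did not follow the CPM. With nuclei that held other classes' markers left out, CDH11 in WT was higher in members than in the others, at a log2 ratio of 2.46, beside -0.73 before. CDH11 had 191 CPM in TG and 247 CPM in WT fibroblast nuclei, and 67.5 CPM of CPE lay in arterial-marked WT members. Opposite calls were found for 40 of 11553 genes (0.346%).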

How the results depend on the processing

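The ratio of member shares stayed above 1 of kept nuclei and below 1 of vascular endothelial nuclei under every alternative gate and filter run. Of kept nuclei it moved beyond its interval to 1.43 with 6 rule-gene UMIs and 1.36 with 0.2% rule-gene UMIs. Of vascular endothelial nuclei it moved to 0.607 with 1000 genes, 0.559 with 2000 UMIs, 0.613 with 6 rule-gene UMIs, 0.583 with 0.2% and 0.621 after thinning to 2000 UMIs. Counts of 1278 higher and 990 lower genes in TG members became 607 and 536 after thinning to 1000 UMIs, and 812 were higher without nuclei that held other classes' markers. Counts of 525 higher and 500 lower genes in members over others became 337 and 248 after thinning, and 318 were lower without nuclei that held other classes' markers. NPR3 in TG over WT turned to a log2 ratio of -0.016 after thinning and -0.84 without members that held ACKR1, SELP or NR2F2. In WT, CDH11 in members over others turned to 2.32 against others with 0 rule-gene UMIs, 0.85 after thinning and 2.46 without nuclei that held other classes' markers. That last alternative turned ROBO1 in TG to 0.76, and GJA5, SEMA3G and DKK2 in WT to -0.41, -0.29 and -3.27. DKK2 in WT was -1.03 with nuclei holding GJA5 or SEMA3G left out of both sets. The cause was not tested. The alternatives that leave out members by GJA5, SEMA3G, ACKR1, SELP, NR2F2, or other markers without GSN were chosen after seeing the data. No paired analysis was possible because each genotype has 1 library and the labels give no replicate numbers. Genes with few UMIs, NPR3 and CPE among them, were limited by depth.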

Other observations

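Guidance and matrix genes also separated members from the other vascular endothelial nuclei in both libraries. Of 24 axon guidance genes, 6 were higher in members and 7 lower. EFNA5, an ephrin, had 472 CPM in TG members and 722.5 CPM in WT members, against 126 and 161 CPM in the others, and SLIT3, a Slit ligand, had 69.3 and 129 CPM against 24.6 and 34.7 CPM. The Slit receptors ROBO1, ROBO2 and ROBO4 and the VEGF co-receptor NRP1 were lower in members. Of 23 measured matrix genes, 6 were higher in members in both libraries and 4 lower. The median log2 ratio of this list was -0.28 in TG and 0.40 in WT. COL8A1, a short-chain collagen, had 423 CPM in TG members and 633 CPM in WT members, against 90.9 and 118 CPM in the others, and the elastic fibre genes ELN and FBN1 were higher as well.

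Endothelial nuclei with at least 2 PLVAP UMIs, which the rule leaves out, often carried the rule genes too. The rule-gene minimum was met by 49 of 81 such nuclei in TG and 27 of 39 in WT. Their LRFN5 level was 586 CPM in TG and 739 CPM in WT. Members exceeded them in GJA5, at 154 CPM in TG members and 107 CPM in WT members against 32.6 and 10.7 CPM, and were below them in the venous genes IL1R1, SELP and NR2F2, and in SMOC1, with ratios of 0.687 in TG and 0.461 in WT for SMOC1. Of nuclei with at least 3 UMIs of MMRN1 and RELN, 15 of 192 in TG and 3 of 226 in WT met the rule-gene minimum.

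PTPRT, a receptor phosphatase, was singled out from the genes with opposite calls after its values were seen. It had 65.8 CPM in TG members and 15.2 CPM in WT members, and 13.3 and 46.0 CPM in the other vascular endothelial nuclei of TG and WT.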
